A study of Mus musculus with 11 samples.

Results

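The level of red blood cell transcripts was followed library by library in molar tooth germs through 6 genes, namely the embryonic globins Hba-x, Hbb-bh1 and Hbb-y, the adult-type alpha-globin Hba-a1, the heme synthesis enzyme Alas2 and the membrane exchanger Slc4a1. They were chosen by symbol, and all 6 of the symbols asked for are among the 16755 genes of the deposited table. RNA came from maxillary molars at E14.5, the cap stage, with n = 6 in each biological replicate, and the sources used here do not say whether 6 counts germs or embryos. The 4 wild-type libraries are Cilk1+/+. The 4 Cilk1-/- libraries come from mice in which EIIa-Cre, a Cre line active in the early embryo, removed exon 6 of Cilk1 in germ cells. Cilk1 encodes a kinase of primary cilia. The 3 compound mutant libraries, Cilk1-/-;PCS1-MRCS1△/△, carry the same deletion and in addition lack a 70 kb stretch from PCS1 to MRCS1, a stretch that holds oral enhancers of Shh. The germline deletions are carried by every tissue, the blood included, and the sources used here name no step that removed blood before RNA was extracted.

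Red blood cells carry hemoglobin, a tetramer of alpha-like and beta-like globin chains, each around a heme. In the mouse embryo the first, primitive red cells arise in the yolk sac and use the embryonic chains, the alpha-like zeta chain of Hba-x and the beta-like chains of Hbb-bh1 and Hbb-y, along with adult-type chains. Definitive red cells, formed later in the fetal liver, use the adult-type chains of Hba-a1, Hba-a2, Hbb-bs and Hbb-bt, and around midgestation both kinds of cell circulate together. In a dissected organ such transcripts are brought in with the blood.

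The globin genes lie in 2 clusters, each with its embryonic genes upstream of its adult-type genes. On chromosome 11 of GRCm38 (GENCODE vM21), Hba-x spans chr11:32276400-32278116 on the plus strand, and Hba-a1 follows 5394 bases downstream at chr11:32283511-32284465. On chromosome 7, on the minus strand, Hbb-y spans chr7:103851749-103853216, and Hbb-bh1 follows after 8584 bases at chr7:103841637-103843164. Alas2 spans chrX:150547375-150570638 on the plus strand, and Slc4a1 chr11:102348824-102366203 on the minus strand. The values count reads over the exons of each whole gene and do not tell transcripts or exons of a gene apart.

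Since the embryonic globins changed together between libraries and Hba-a1 and the adult-type beta-globins changed together with Alas2, the 150 bases before the start of genes of each set are shown, as given by RefSeq for GRCm38.p6. Such a sequence was matched by symbol for 4 of the 6 genes, not for Hbb-bh1 and Slc4a1. Hbb-y and Hba-x are the embryonic genes, Hba-a1, Alas2 and Hbb-bs the genes of the other set. Each runs 5′ to 3′ in the direction of the gene and ends at the base before the RefSeq start, and capitals mark matches on either strand to the CACCC box (the letters CACCC, or GGGTG on the strand shown), the CCAAT box (CCAAT or ATTGG), the GATA motif (GATAA or TTATC) and the TATA motif (TATAA or TTATA).
Hbb-y, chr7:103853208-103853357, minus strand: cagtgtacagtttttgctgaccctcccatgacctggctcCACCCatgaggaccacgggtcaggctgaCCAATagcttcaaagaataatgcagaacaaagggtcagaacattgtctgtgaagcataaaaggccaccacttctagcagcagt
Hba-x, chr11:32276450-32276599, plus strand: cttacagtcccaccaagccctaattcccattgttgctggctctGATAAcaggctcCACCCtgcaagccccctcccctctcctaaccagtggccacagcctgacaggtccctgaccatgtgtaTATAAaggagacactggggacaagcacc
Hba-a1, chr11:32283522-32283671, plus strand: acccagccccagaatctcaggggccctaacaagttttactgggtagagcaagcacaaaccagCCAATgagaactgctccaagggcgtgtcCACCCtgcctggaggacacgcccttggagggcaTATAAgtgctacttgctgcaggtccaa
Alas2, chrX:150547267-150547416, plus strand: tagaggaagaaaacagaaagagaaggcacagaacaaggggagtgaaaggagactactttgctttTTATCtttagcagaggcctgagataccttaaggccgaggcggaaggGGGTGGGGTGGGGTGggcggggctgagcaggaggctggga
Hbb-bs, chr7:103827929-103828078, minus strand: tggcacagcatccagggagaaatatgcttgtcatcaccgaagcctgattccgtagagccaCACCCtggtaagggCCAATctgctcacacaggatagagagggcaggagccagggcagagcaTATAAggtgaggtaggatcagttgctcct

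All 5 windows held CACCC. Alas2 held it 3 times side by side, as GGGTG on the strand shown. Hbb-y, Hba-a1 and Hbb-bs held CCAAT, Hba-x, Hba-a1 and Hbb-bs held TATAA, and Hba-x and Alas2 held GATAA, in Alas2 as TTATC. Among 32851 windows of the same length in the same table, 37.4% held CACCC on either strand, 24.5% CCAAT, 13.3% GATAA and 14.2% TATAA. No capitals above overlap between motifs. A match describes the letters only. GENCODE vM21 places the 5′ ends of all 5 genes upstream of the RefSeq starts. The windows of Hba-x, Hba-a1 and Hbb-bs lie wholly, and those of Hbb-y and Alas2 partly, within its gene models.

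Before the levels are compared, some properties of the libraries bear on the comparisons. The extraction protocols in the labels differ in wording between 2 sets of samples, of which the first holds replicates 1 to 3 of wild type and of Cilk1-/-, and the second holds replicate 4 of both and all 3 compound mutant libraries. The compound mutant thus differs from 3 of 4 libraries of either other genotype by set as well. With the set as a term, limma called 13 genes lower and 5 higher in the compound mutant against wild type, in place of 106 and 103, and 1 lower and 0 higher against Cilk1-/-, in place of 65 and 26. Wild-type and Cilk1-/- libraries that share a replicate number deviated from their genotype means in opposite directions, with correlations over all genes of -0.74, -0.89, -0.85 and -0.79 for numbers 1 to 4, so they are not independent. The 6 genes did so in 17 of 24 combinations of gene and number. How the deposited values were adjusted is not given in the sources used here. Compound mutant replicate 1 stood apart from all other libraries by cartilage transcripts, with Col2a1, the collagen of cartilage, at a log2 value of 8.62 against 3.44 to 4.88 elsewhere. Its 12 listed tooth germ genes, turned back from the log2 scale, summed to 502, against 908 to 1042 elsewhere. The targeted gene, listed under its older symbol Ick, had log2 values of 3.45 to 3.60 in wild-type libraries, 2.72 to 2.86 in Cilk1-/- libraries and 2.6 to 2.67 in compound mutant libraries, as the labels have it.

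Values are given on the deposited log2 scale, which is probably log2, with 1 added, of FPKM, fragments scaled for gene length and library size. Linear values are these turned back from the log2 scale with the 1 taken off. By mean log2 value over the 11 libraries, Hba-a1 stood first with 10.71, ahead of Hbb-y with 5.78, Hba-x with 3.97, Alas2 with 2.87, Hbb-bh1 with 1.26 and Slc4a1 with 0.76. Each neighbouring pair kept this order in all 11 libraries, apart from Hba-x and Alas2, which kept it in 10. The SDs over the 11 libraries were 0.52 for Hba-a1, 1.57 for Hbb-y, 1.11 for Hba-x, 0.46 for Alas2, 0.43 for Hbb-bh1 and 0.23 for Slc4a1, so the mean gap of 1.10 between Hba-x and Alas2 was within the SD of Hba-x while the others were larger than either gene's SD. In compound mutant replicate 3, Hba-x was 0.40 below Alas2 on the log2 scale. By level, Hba-a1 was the second highest gene of the table in the median library, at rank 2 of 16755.

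**Figure D1:**
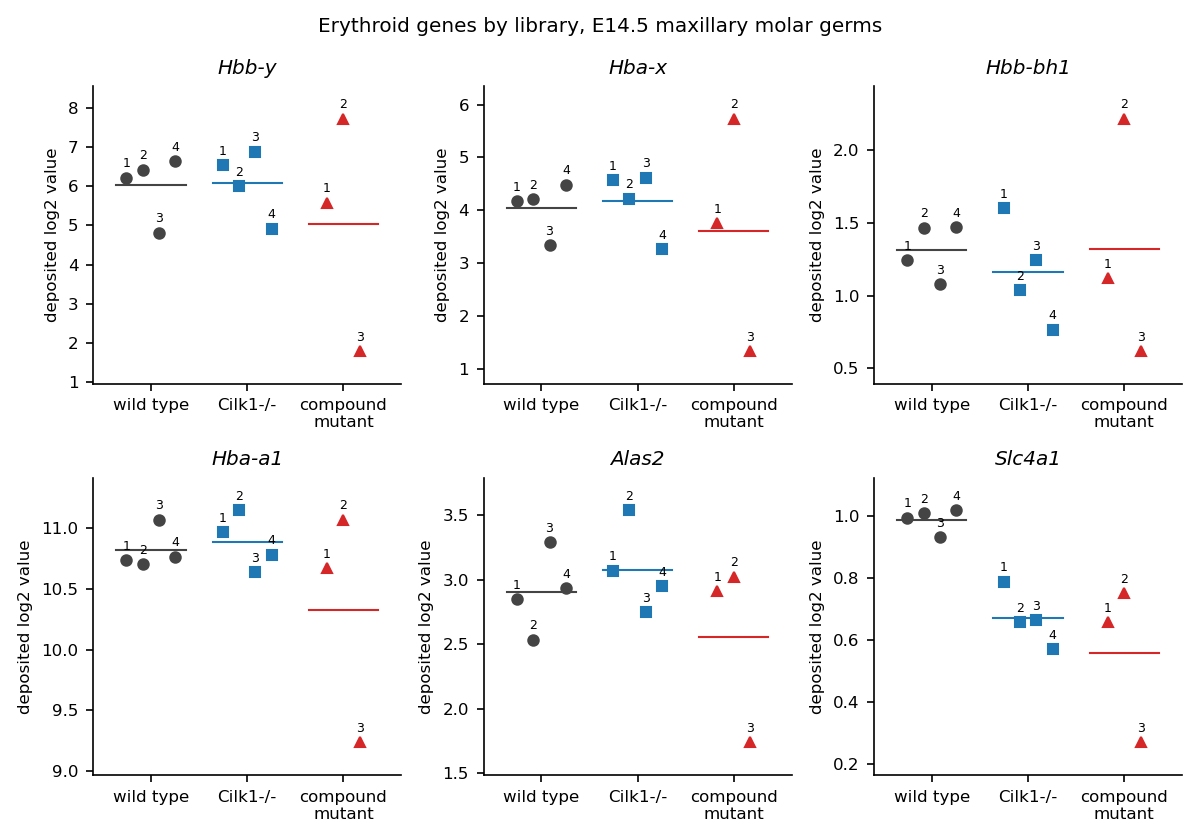
Deposited log2 values of the 6 genes (vertical axes, separate scales that do not start at 0) in wild-type, Cilk1-/- and compound mutant libraries. Each symbol is 1 library, labelled with its replicate number, and horizontal lines are genotype means. Compound mutant replicate 3 is the lowest library in all 6 panels and replicate 2 the highest for the 3 embryonic globins.

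Hbb-y and Hba-x varied most of the 6 genes. Hbb-y, the beta-like chain that dominates in maturing primitive cells, had log2 values of 6.22, 6.42, 4.82 and 6.65 in wild-type replicates 1 to 4. Its values in Cilk1-/- replicates 1 to 4 were 6.54, 6.00, 6.89 and 4.91. In compound mutant replicates 1 to 3 they were 5.58, 7.73 and 1.79. Within both 4-library genotypes 1 library lay over 1 log2 unit below the rest, wild-type replicate 3 and Cilk1-/- replicate 4, and the compound mutant held both the highest and the lowest of all 11 libraries. On the linear scale the highest library was 86.2 times the lowest, 212 against 2.46. The SD of Hbb-y within genotypes, 1.67 log2 units, ranked 2 among the 16755 genes, and 29 without compound mutant replicate 3. Among the 4 wild-type libraries alone its SD of 0.82 ranked 12, so the spread was not limited to the mutants.

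Hba-x, the zeta-globin gene, is the alpha-like partner of Hbb-y in embryonic hemoglobin. Its log2 values were 4.17, 4.21, 3.34 and 4.49 in wild-type replicates 1 to 4, and 4.57, 4.22, 4.61 and 3.27 in the Cilk1-/- replicates. In the compound mutant they were 3.76, 5.74 and 1.33. The same libraries as for Hbb-y were high and low, wild-type replicate 3 and Cilk1-/- replicate 4 being the lowest of their genotypes. The within-genotype SD of 1.21 ranked 13, and 59 without compound mutant replicate 3. The highest linear value, 52.4, was 34.5 times the lowest, 1.52.

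Hbb-bh1, the beta-like chain used first in primitive cells, was near the bottom of the scale. It had log2 values of 1.24, 1.47, 1.08 and 1.47 in wild-type libraries and 1.60, 1.04, 1.24 and 0.76 in Cilk1-/- libraries. The compound mutant libraries had 1.12, 2.22 and 0.62. Wild-type replicate 3, Cilk1-/- replicate 4 and compound mutant replicate 3 were again the lowest of their genotypes. The ratio of Hbb-y to Hbb-bh1 on the linear scale was between 24.5 and 86.0 in the wild-type and Cilk1-/- libraries. It was 40.0 and 58.1 in compound mutant replicates 1 and 2 and 4.58 in replicate 3, where the linear value of Hbb-bh1 was 0.537.

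Over the 11 libraries, Hbb-y and Hba-x had a Pearson r of 0.99 and a Spearman rho of 0.95, and an r of 0.97 without compound mutant replicate 3. Hbb-bh1 had an r of 0.82 with Hbb-y and 0.87 with Hba-x. These are descriptions over libraries of which 8 form number-sharing wild-type and Cilk1-/- sets that are not independent. The linear ratio of Hbb-y to Hba-x lay between 2.98 and 5.0 in the 8 wild-type and Cilk1-/- libraries. It was 3.74, 4.05 and 1.62 in compound mutant replicates 1 to 3.

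Hba-a1, an adult-type alpha-globin gene, spread less than Hbb-y and Hba-x, with a within-genotype SD of 0.51 against 1.67 and 1.21 log2 units. Hbb-bh1, near the bottom of the scale, had 0.48. Without compound mutant replicate 3 the SDs were 0.21 for Hba-a1, 0.39 for Hbb-bh1, 0.97 for Hbb-y and 0.74 for Hba-x. The log2 values of Hba-a1 were 10.73, 10.70, 11.07 and 10.76 in wild-type replicates 1 to 4. In the Cilk1-/- replicates they were 10.97, 11.15, 10.64 and 10.78. Compound mutant replicates 1 to 3 had 10.67, 11.07 and 9.24. Compound mutant replicate 3 was 2.65 times below the lowest of the other 10 libraries on the linear scale, with 602 against 1593, whereas those 10 lay between 1593 and 2271. Wild-type replicate 3, lowest of its genotype for all 3 embryonic globins, was here the highest.

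Alas2 encodes the erythroid form of the enzyme that starts heme synthesis. Its log2 values were 2.85, 2.54, 3.29 and 2.94 in wild-type replicates 1 to 4, and 3.07, 3.54, 2.75 and 2.95 in Cilk1-/- replicates. The compound mutant libraries had 2.91, 3.03 and 1.74. Wild-type replicate 3 and Cilk1-/- replicate 2 were the highest of their genotypes, as for Hba-a1. These libraries also had the highest summed macrophage values of all, 86.5 and 79.9, and the part of that in the values of Hba-a1 and Alas2 was not tested. Over the 11 libraries Alas2 and Hba-a1 had an r of 0.94 and a rho of 0.95, and an r of 0.85 without compound mutant replicate 3. The linear ratio of Hba-a1 to Alas2 ranged from 213 to 347.

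The adult-type beta-globins followed Hba-a1. Hbb-bs, an adult-type beta-globin gene, had log2 values of 9.36 to 9.88 in wild-type libraries, 9.51 to 10.09 in Cilk1-/- libraries, and 9.44, 9.62 and 8.12 in compound mutant replicates 1 to 3. Hbb-bt, the other adult-type beta-globin gene, had 8.71 to 9.24, 8.82 to 9.42, and 8.74, 8.96 and 7.24 in the same order. With Hba-a1, Hbb-bs had an r of 0.97 and Hbb-bt of 0.98 over the 11 libraries, and without compound mutant replicate 3 of 0.83 and 0.88. The linear ratio of Hba-a1 to Hbb-bs lay between 2.09 and 2.74 in all 11 libraries, compound mutant replicate 3 included, with 2.17. The coding sequences of Hbb-bs and Hbb-bt are identical at 440 of 441 positions, so the split of reads between them is uncertain.

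Hba-a1 and Alas2 did not follow Hbb-y once compound mutant replicate 3 was left out. Hba-a1 and Hbb-y had an r of 0.79 over 11 libraries but a rho of 0.07, and without compound mutant replicate 3 the r was -0.01. Alas2 and Hbb-y had an r of 0.60, a rho of 0.03 and an r of -0.28 without that library. The linear ratio of Hba-a1 to Hbb-y ran from 10.1 in compound mutant replicate 2 to 245 in compound mutant replicate 3. It was 17.5 to 79.0 in wild-type libraries and 13.6 to 60.4 in Cilk1-/- libraries.

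**Figure D2:**
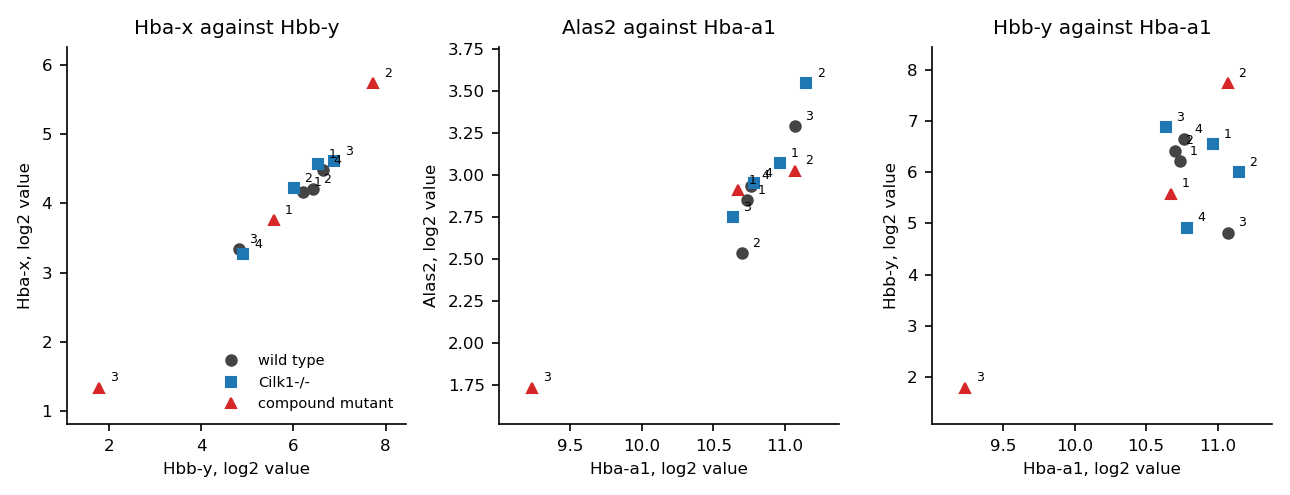
Log2 values of pairs of genes, 1 symbol per library with its replicate number, in wild-type (circles), Cilk1-/- (squares) and compound mutant (triangles) libraries. Hba-x follows Hbb-y over the whole range and Alas2 follows Hba-a1. Hbb-y against Hba-a1 shows no line once compound mutant replicate 3, at the lower left, is set aside.

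Summed on the linear scale, Hba-a1, Hba-x, Hbb-bh1 and Hbb-y made up 0.520, 0.493, 0.611 and 0.529% of the values of all genes in wild-type replicates 1 to 4. In the Cilk1-/- replicates they made up 0.594, 0.670, 0.496 and 0.520%. In compound mutant replicates 1 to 3 they made up 0.498, 0.662 and 0.176%. Of these libraries, 10 lay between 0.493 and 0.670%, and compound mutant replicate 3 far below them. The wild-type mean was 0.538 ± 0.0507% (SD, n = 4). For Cilk1-/- it came to 0.570 ± 0.0787% (SD, n = 4), and for the compound mutant to 0.445 ± 0.247% (SD, n = 3).

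The embryonic globins made up 5.11, 5.89, 1.71 and 6.59% of these 4 summed globins in wild-type replicates 1 to 4. In the Cilk1-/- replicates their share was 5.53, 3.48, 8.20 and 2.14%. In compound mutant replicates 1 to 3 it was 3.58, 11.1 and 0.744%. Compound mutant replicates 2 and 3 thus bracketed all other libraries, while the genotype means of 4.82 ± 2.16% (SD, n = 4), 4.84 ± 2.64% (SD, n = 4) and 5.14 ± 5.35% (SD, n = 3) differed by less than the SD within any genotype. In bulk RNA, fewer red cells and less globin RNA per red cell cannot be told apart, nor can fewer primitive cells and less embryonic globin RNA in each.

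**Figure D3:**
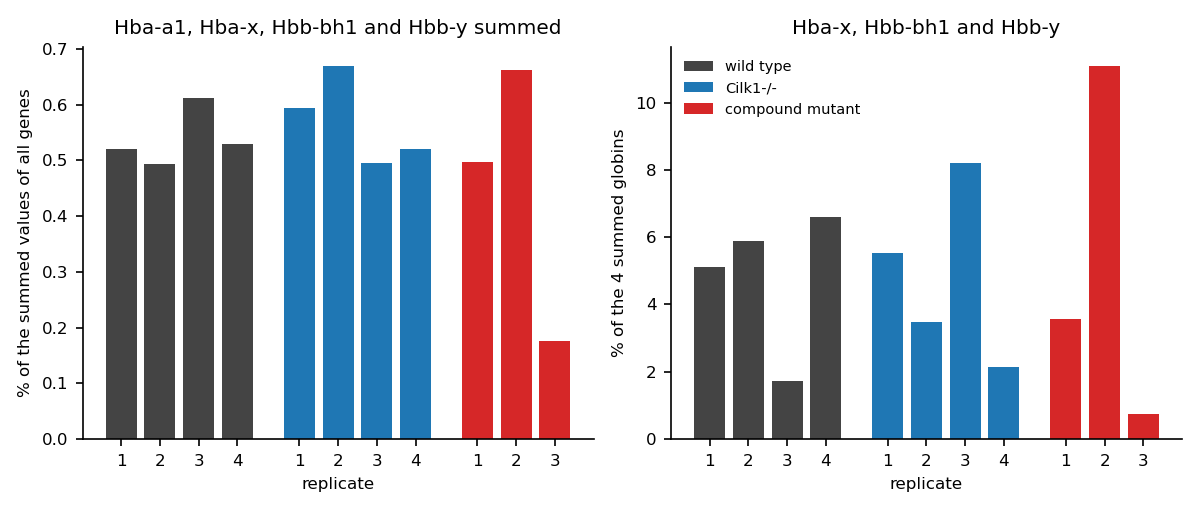
Left, summed linear values of Hba-a1, Hba-x, Hbb-bh1 and Hbb-y as a percentage of the summed values of all genes, and right, the part of that sum held by the 3 embryonic globins, with 1 bar per library. The left bars are between 0.493 and 0.670% except compound mutant replicate 3 at 0.176%, and the right bars run from 0.744 to 11.1%.

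Compound mutant replicate 3 was the lowest of the 11 libraries for 6 of 6 genes, against 17.1% of all genes. Set against the median of the other 10 libraries, its linear value was 32.2 times lower for Hbb-y, 11.6 times lower for Hba-x, 2.90 times lower for Hba-a1, 2.87 times lower for Alas2, 3.43 times lower for Slc4a1 and 2.55 times lower for Hbb-bh1. Transcripts of vessel walls were not low in it. The 15 endothelium genes, all listed, summed to a linear value of 232 there and to 206 to 247 in the other libraries, and Pecam1, a surface protein of endothelium, had a log2 value of 4.53 against 4.23 to 4.59. The 13 macrophage genes listed of 14 summed to 70.6, within the 53.1 to 86.5 of the other libraries. The 12 tooth germ genes, led by Krt14, a keratin of the epithelium, with a mean log2 value of 7.94, summed to 975 there. The other libraries ran from 502, in compound mutant replicate 1, and otherwise 908, to 1042. No cause of the low globin values of compound mutant replicate 3 was tested.

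Compound mutant replicate 2 was the highest library for Hbb-y, Hba-x and Hbb-bh1 but not for Hba-a1, Alas2 or Slc4a1. Its linear values were 2.68, 2.98 and 2.67 times the median of the libraries other than compound mutant replicate 3 for Hbb-y, Hba-x and Hbb-bh1. The corresponding ratios were 1.23 for Hba-a1 and 1.07 for Alas2. Over all genes, this library was the highest for 11.3%. Its macrophage sum of 53.1 was the lowest of all libraries.

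Hba-a2 departed from the other adult-type globins in the compound mutant. This further alpha-globin gene, at chr11:32296489-32297298, has a coding sequence identical to that of Hba-a1 at 425 of 426 positions. Its log2 values were 5.54, 5.44, 5.45 and 4.98 in wild-type libraries and 5.4, 5.67, 5.56 and 5.54 in Cilk1-/- libraries. In the compound mutant they were 6.66, 6.77 and 4.60. The linear ratio of Hba-a1 to Hba-a2 was between 34.4 and 56.8 in wild-type and Cilk1-/- libraries, and 16.2, 19.8 and 25.9 in compound mutant replicates 1 to 3, with no overlap. This ratio was singled out after its values were seen, the coding sequences are nearly identical, and how reads that match both genes were divided is not given in the sources used here. The sum of both genes followed Hba-a1, with 1707 to 2194 in wild-type, 1639 to 2321 in Cilk1-/- and 1732, 2255 and 625 in compound mutant libraries. Hbq1a, a theta-globin gene, and Hbb-b1 stayed at or below log2 values of 0.37 and 0.69.

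Slc4a1 encodes band 3, the anion exchanger of the red cell membrane. Its log2 values were 1.0, 1.01, 0.93 and 1.02 in wild-type replicates 1 to 4, and 0.79, 0.66, 0.66 and 0.57 in Cilk1-/- replicates. The compound mutant libraries had 0.66, 0.75 and 0.27. All 7 mutant libraries lay below all 4 wild-type libraries, a pattern that no other of the 6 genes had. At 10.7% of all genes every Cilk1-/- library lay below every wild-type library, and at 9.05% every compound mutant library did. Against Cilk1-/-, where 9.3% of all genes had every compound mutant library lower, those of Slc4a1 overlapped. The wild-type libraries are shared by the first 2 comparisons. The mean linear value was 0.986 in wild-type, 0.594 in Cilk1-/- and 0.489 in compound mutant libraries, near the bottom of the scale, where the added 1 shrinks log2 differences. Over the 11 libraries, Slc4a1 had a rho of 0.71 with Hbb-bh1, 0.48 with Hbb-y, 0.38 with Hba-x, 0.14 with Hba-a1 and 0 with Alas2, and the r with Hbb-bh1 was 0.52, or 0.29 without compound mutant replicate 3.

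The genotypes were compared with limma's moderated test over all 16755 genes, with Benjamini-Hochberg adjustment, and called genes had both an adjusted p under 0.05 and a change of 1.5 times or more. In Cilk1-/- against wild-type libraries, 0 of the 6 genes were called, where 0.37% of all genes were. An adjusted p under 0.05 was reached by 0 of the 6 and by 2.44% of all genes. At an unadjusted p under 0.05 limma had 1 of the 6, Slc4a1, where 20.7% of all genes reached that level. Slc4a1 differed by -0.32 on the log2 scale (SE 0.0945, limma adjusted p = 0.0988). The exact two-sided permutation test over the 8 libraries gave p = 0.0286, the smallest that 4 against 4 allows. Both tests take libraries as independent, which same-numbered wild-type and Cilk1-/- libraries are not. With the replicate number as a block the limma adjusted p was 0.232. The limma adjusted p of Slc4a1 was under 0.05 in 3 of 18 alternative fits, between 0.00752, with only these 2 genotypes fitted, and 0.245. The others were those without compound mutant replicate 2 (0.0494) and without compound mutant replicate 3 (0.0164). With a pseudocount of 0.1 the difference was -0.66, with a limma adjusted p of 0.181. Hbb-y differed by 0.06 (SE 1.03, limma adjusted p = 0.985) and Hba-x by 0.12 (SE 0.745, limma adjusted p = 0.957). For Hbb-bh1 the difference was -0.15 (SE 0.297), for Hba-a1 0.07 (SE 0.318) and for Alas2 0.17 (SE 0.282), with limma adjusted p-values of 0.823, 0.941 and 0.782. The standard error exceeded the difference for each of these 5 genes.

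In the compound mutant against wild type, 0 of the 6 genes were called, where 1.25% of all genes were. Slc4a1 was the 1 gene of the 6 with an unadjusted p under 0.05 by limma, against 26.7% of all genes, and it also had an adjusted p under 0.05, against 6.58%. Slc4a1 differed by -0.43 (SE 0.102, limma adjusted p = 0.0364), short of the fold change needed, and the exact two-sided permutation test gave p = 0.0571, the smallest that 3 against 4 allows. With the replicate number as a block its limma adjusted p was 0.127, and with the set of samples as a term 0.268. The adjusted p was under 0.05 in 7 of 18 alternative fits, between 0.009 and 0.268. Leaving out each library in turn gave differences of -0.53, without compound mutant replicate 2, to -0.29, without replicate 3. With a pseudocount of 0.1 the difference was -0.99, with a limma adjusted p of 0.0554. The mean log2 difference of Hbb-y was -0.99 (SE 1.11, limma adjusted p = 0.597) and that of Hba-x -0.44 (SE 0.805, limma adjusted p = 0.761). Their mean linear values were 1.22 and 1.36 times those of wild type, with compound mutant replicate 2 at 212 for Hbb-y and 52.4 for Hba-x. Without compound mutant replicate 3 the differences were 0.63 and 0.70. Hba-a1 differed by -0.49 (SE 0.344), Alas2 by -0.35 (SE 0.305) and Hbb-bh1 by 0.0037 (SE 0.321), with limma adjusted p-values of 0.377, 0.489 and 0.997. Without compound mutant replicate 3 Hba-a1 and Alas2 differed by 0.05 and 0.06.

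Compound mutant and Cilk1-/- libraries differ by the added PCS1 to MRCS1 deletion and, for 3 of the 4 Cilk1-/- libraries, by set. With the set as a term, a fit in which replicate 4 of wild type and Cilk1-/- link the sets, Hbb-y differed by -0.78 and Hba-x by -0.32, with limma adjusted p-values of 0.873 and 0.935. Here too 0 of the 6 genes were called, where 0.543% of all genes were, 0 had an adjusted p under 0.05, where 3.33% of all genes had, and 0 had an unadjusted p under 0.05 by limma, where 23.2% of all genes had. Hbb-y differed by -1.05 (SE 1.11, limma adjusted p = 0.604), Hba-x by -0.56 (SE 0.805, limma adjusted p = 0.716) and Slc4a1 by -0.11 (SE 0.102, limma adjusted p = 0.548). Without compound mutant replicate 3 these became 0.57, 0.58 and 0.03. Hba-a1 differed by -0.56 (SE 0.344), Alas2 by -0.52 (SE 0.305) and Hbb-bh1, in the other direction, by 0.16 (SE 0.321). Their limma adjusted p-values were 0.351, 0.327 and 0.806. Without compound mutant replicate 3 these 3 genes differed by -0.014, -0.11 and 0.51. The median difference of the 6 genes was 0.06 in the first comparison, -0.44 in the second and -0.54 in this one, where the medians of all genes were 0.00320, -0.00164 and 0.00281. Both comparisons of the compound mutant rest on its same 3 libraries, and without replicate 3 their medians were 0.21 and 0.27.

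**Figure D4:**
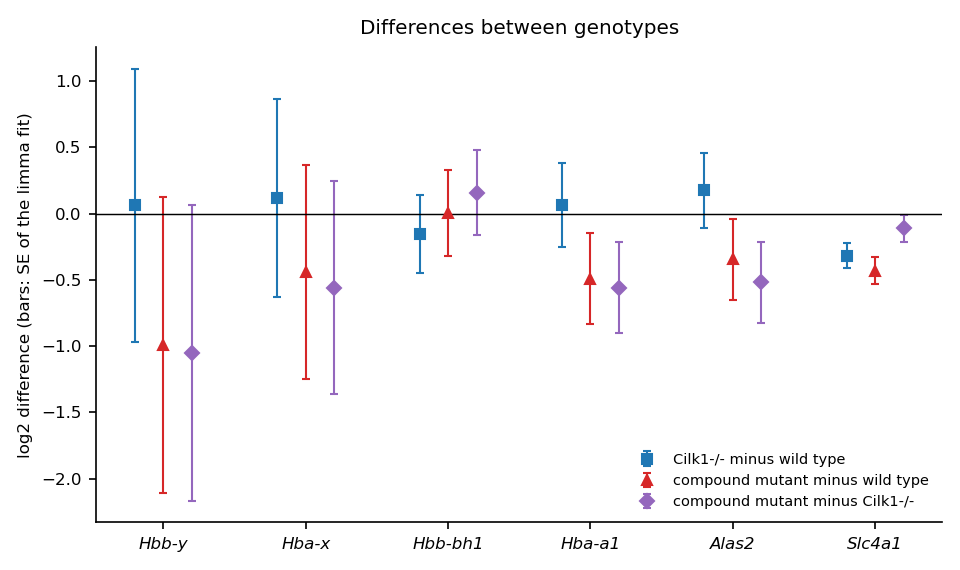
Log2 differences between genotypes for the 6 genes, as points with the standard error of the limma fit as bars, and a line at 0. The bars of Hbb-y and Hba-x are the longest and cross 0 in all 3 comparisons, and the bars of Slc4a1 are the shortest and lie below 0 in all 3.

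The wider erythroid programme was followed in lists of genes. Of the 15 erythroid transcription factors and receptors in the table, 2 were below a log2 value of 1 in every library, and many of the 15 are used in other cells too. The next 3 genes, of red cell precursors, were singled out after their low values were seen. Gata1, the master regulator of erythroid differentiation, had log2 values of 0.02 to 0.19 and Hemgn, a nuclear protein of erythroid precursors, 0.02 to 0.16 over all libraries. Klf1, a regulator of beta-globin transcription, had 0.66 to 1.04. Epor, the erythropoietin receptor, was higher, with 1.18 to 1.51. Gata2, also singled out after its values were seen, had 4.71 in compound mutant replicate 1 and 0.90 to 1.72 in the other libraries. The mean log2 value of the 15 genes was 2.88 in that library and 2.32 to 2.41 in the others. None of these genes was called in any comparison by limma.

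Of 12 heme synthesis genes other than Alas2, all were listed and 0 were called by limma in any comparison, where 0.37, 1.25 and 0.543% of all genes were called in the 3 comparisons, shares that hold for the lists that follow as well. Their summed linear value was 213 to 222 in wild-type libraries, 203 to 209 in Cilk1-/- libraries and 208, 225 and 198 in compound mutant replicates 1 to 3, so replicate 3 was the lowest library by a small margin. Tmem14c, a mitochondrial protein needed for heme synthesis, was the highest of them, and tissues other than blood make heme too. In the limma fit 4 of them had an unadjusted p under 0.05 in Cilk1-/- against wild type, 3 lower and 1 higher, 3 in the compound mutant against wild type and 2 in the compound mutant against Cilk1-/-, where 20.7, 26.7 and 23.2% of all genes had one. By limma, 0 genes were called among 6 listed heme breakdown genes, of which Hmox2, a heme oxygenase, was the highest with a mean log2 value of 5.15, and 1 had an unadjusted p under 0.05 in the compound mutant against wild type, a level that 26.7% of all genes reached. The 11 listed iron genes, led by Ftl1, a ferritin chain, at 9.61, had 0 called, with 5 lower and 1 higher at an unadjusted p under 0.05 in that comparison. The 15 listed erythroid enzymes, led by Prdx2, a peroxiredoxin, at 8.45, had 0 called, with 2 lower and 1 higher. The 15 listed erythroid transcription factors and receptors, led by Ldb1, a partner of GATA factors, at 7.12, had 0 called, with 2 lower and 4 higher.

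Among the 16 listed of 21 red cell membrane genes, 1 was called in the compound mutant against wild type, where 1.25% of all genes were. At an unadjusted p under 0.05 by limma, which 26.7% of all genes reached, 3 were lower and 3 higher. Slc2a1, the glucose transporter of red cells and of many other tissues, was higher in the compound mutant than in wild type by 0.60 (SE 0.114, limma adjusted p = 0.0186). With the replicate number as a block its limma adjusted p was 0.118, and with the set of samples as a term 0.172. Its direction was opposite to that of Slc4a1. Add1, a protein of the membrane skeleton, had the highest mean log2 value of the list, 6.06. The summed linear value of the list was 142 to 148 in wild-type, 148 to 162 in Cilk1-/- and 200, 185 and 167 in compound mutant libraries, and it did not follow the globins.

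Other cell types that blood could bring along were read from their own lists. Of 15 endothelium genes, 13 listed macrophage genes and 9 listed platelet and megakaryocyte genes, 0 were called in any comparison by limma, against 0.37, 1.25 and 0.543% of all genes, with 5 endothelium genes higher and 2 macrophage genes lower at an unadjusted p under 0.05 in the compound mutant against wild type, where 26.7% of all genes reached that level. Ramp2, a receptor subunit of endothelium, led its list with a mean log2 value of 5.45, and Lyz2, the lysozyme of macrophages, led its own with 3.66. The platelet genes, with 3 lower and 1 higher at that level, and led by Pf4, a chemokine of platelet granules, with 2.70, summed to 9.53 to 14.5 over all libraries. In the compound mutant against wild type, Eng of endothelium differed by 0.31, Lyz2 by -0.48 and Gp1ba of platelets by -0.26. Their limma adjusted p-values were 0.0155, 0.0469 and 0.0276, under 0.05 as for 6.58% of all genes, but short of the fold change needed. Against Cilk1-/-, Eng differed by 0.34 (limma adjusted p = 0.0145), where 3.33% of all genes had an adjusted p under 0.05. Of the 8 listed neutrophil and mast cell genes 1 was called, against 1.25% of all genes. Cpa3, a mast cell protease, was lower in the compound mutant than in wild type by -0.66 (SE 0.167, limma adjusted p = 0.0442). Its limma adjusted p was 0.173 with the replicate number as a block and 0.286 with the set of samples as a term. S100a8, a neutrophil protein, had the highest mean log2 value of that list, 2.29.

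Of the liver and visceral endoderm list, 6 of 14 genes were in the table, led by Trf, the transferrin of serum, with a mean log2 value of 3.04, and 2 were called, both lower in the compound mutant than in wild type, where 1.25% of all genes were called. Afp, the alpha-fetoprotein of fetal serum, differed by -1.90 (SE 0.497, limma adjusted p = 0.0489) and Apoa1, an apolipoprotein of serum lipoproteins, by -1.32 (SE 0.292, limma adjusted p = 0.0294). With the replicate number as a block the limma adjusted p-values were 0.190 and 0.157, and with the set of samples as a term 0.272 and 0.222. Of 11 fits that left out 1 library, the limma adjusted p was under 0.05 in 1 for Afp and 8 for Apoa1. Some of these values were below 0, down to -0.45 for Afp in compound mutant replicate 3. In Cilk1-/- against wild type 0 of the 6 were called by limma, where 0.37% of all genes were. Afp differed there by -1.59 and Apoa1 by -0.99, with limma adjusted p-values of 0.0940 and 0.0813. Trf differed by -0.50 (limma adjusted p = 0.0436), short of the fold change needed. At an unadjusted p under 0.05 by limma, 4 were lower and 0 higher, against 20.7% of all genes. The summed linear value of the 6 genes was 11.97 to 20.4 in wild-type libraries, 6.46 to 8.6 in Cilk1-/- libraries and 9.74, 7.41 and 11.4 in compound mutant libraries. All 7 mutant sums lay below all 4 wild-type sums, as the values of Slc4a1 did, and the part of one in the other was not tested.

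**Figure D5:**
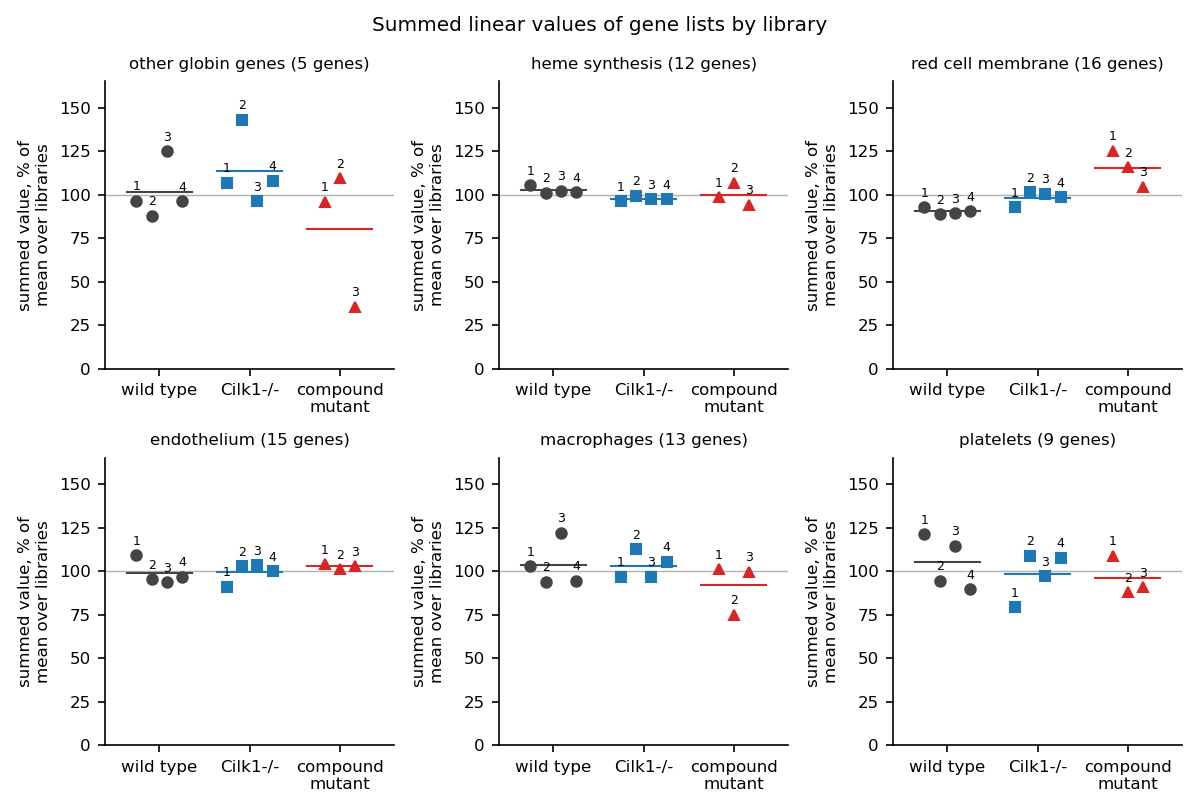
Summed linear values of 6 gene lists, each as a percentage of its mean over the 11 libraries, with 1 symbol per library, its replicate number, and a line at the genotype mean. The other globin genes fall to 35.5% in compound mutant replicate 3, where endothelium is at 103% and macrophages are at 99.5%.

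Lists of neighbouring tissues held called genes too. In the compound mutant against wild type, 2 of 10 neuron genes were called, where 1.25% of all genes were, and the summed linear value of the list was 230, 44.1 and 81.5 in compound mutant replicates 1 to 3 against 27.6 to 35.97 in wild-type and 40.7 to 48.9 in Cilk1-/- libraries. All Cilk1-/- sums lay above all wild-type sums, and compound mutant replicate 2 lay within their range. The sum stood highest in compound mutant replicate 1, the library with the high cartilage transcripts. Tubb3 and Isl1, genes of neurons, were higher by 1.5 (SE 0.323, limma adjusted p = 0.0268) and 0.95 (SE 0.186, limma adjusted p = 0.0190). Against Cilk1-/-, 3 of 10 muscle genes were called, where 0.543% of all genes were. The summed linear value of that list was 56.4, 20.4, 20.4 and 39.1 in Cilk1-/- replicates 1 to 4, 9.09 to 31.0 in wild-type libraries and 6.47 to 9.27 in compound mutant libraries, so Cilk1-/- replicates 1 and 4 stood highest. The muscle genes Actc1, Acta1 and Myh3 were lower by -2.35, -1.71 and -1.52, with limma adjusted p-values of 0.0223, 0.0417 and 0.0318. With the replicate number as a block none of these 5 had a limma adjusted p under 0.0971, and with the set of samples as a term none had one under 0.161. Their part in the globin values was not tested.

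The genes whose pattern was most like the mean of the 6 genes, each centred and scaled over the 11 libraries, were Igf2bp1 (r = 0.98), Nfia (0.96), Igf2bp2 (0.96), Npas3 (0.96) and Xrcc6 (0.95). Igf2bp1, an RNA-binding protein of embryonic tissues, had its lowest log2 value of 2.25 in compound mutant replicate 3 and its highest of 3.71 in compound mutant replicate 2, against 3.01 to 3.42 in the other 9 libraries. Without compound mutant replicate 3 the r of these 5 genes was 0.85, 0.70, 0.89, 0.84 and 0.82, and Igf2bp1 ranked 42 among all genes. The 5 highest were then Cmss1, Ube2r2, Eef1g, Kbtbd4 and Polr2d, at 0.93, 0.93, 0.93, 0.92 and 0.91, so the likeness of the first set rests in part on that library.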

How the data were processed

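RNA from molar tooth germs of 11 samples was sequenced as poly-A libraries. The authors mapped the reads to mm10 with HISAT2 2.0.5, counted them per gene with featureCounts 1.5.0-p3 and calculated FPKM. The deposited table holds log2 values for 16755 genes, of which 257 have a value below 0, and how they were adjusted is not given in the sources used here. Read depth is unknown, and count models were not used. Turned back from the log2 scale, the values sum to 339970 to 364615 per library. How precise a value is was read from replicate spread.

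All genes of the table were fitted in limma 3.58.1 (R 4.3.3) with 3 genotypes and a trended, robust variance. P-values were adjusted over all genes by Benjamini-Hochberg, and called genes had both an adjusted p under 0.05 and a change of 1.5 times or more. Single genes were also compared by an exact permutation test over libraries (Python 3.11.15, scipy 1.17.1), and the fit was tested on simulated data. Alternatives were the replicate number as a block, the set of samples as a term, only the 2 genotypes compared, no trend, quantile normalization, median centring, a pseudocount of 0.1, a mean log2 value of at least 1, all listed globins, Spearman's rho for likeness and leaving out each library. Labels give the replicates as biological, and a number is not said to mark a litter or day. Same-numbered wild-type and Cilk1-/- libraries deviated in opposite directions and are not independent. The main fit and the permutation test left the number out, which can make p-values between these genotypes too small. The 6 genes were all named. From each list of other genes, those called were named with the gene of highest mean, as were the globins of the table and the 5 genes with the highest r to the mean of the 6. The members and lists were chosen with earlier results of these data known.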

Additional observations from a re-analysis of the deposited data

Results flagged for a closer look

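The value of Hba-a1 in wild-type replicate 3, a log2 value of 11.07, stood apart from the other 3 wild-type libraries, at 10.70 to 10.76, by a gap of 0.832 of the range of the group, just above the 95% critical value of Dixon's test. In all, 26 groups of 4 libraries were tested, and chance flags about 1 in 20. The same library was the lowest of the wild-type libraries for Hbb-y, Hba-x and Hbb-bh1.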

How the results depend on the processing

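None of the 6 genes was called in any of the 3 comparisons under any alternative run. Of 440 alternative values, 407 kept their direction and their side of the threshold or moved within the spread, 11 moved beyond it and 22 changed sign. The causes were not tested.

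Between Cilk1-/- and wild type, leaving out each library in turn gave log2 differences of -0.022 to 0.15 for Hba-a1 (lowest without Cilk1-/- replicate 2), -0.12 to 0.42 for Hba-x and -0.34 to 0.45 for Hbb-y. For the last 2 genes the sign changed without Cilk1-/- replicate 1 (-0.018 and -0.091), without Cilk1-/- replicate 3 (-0.031 and -0.21) and without wild-type replicate 3. Hbb-bh1 ranged from -0.30, without Cilk1-/- replicate 1, to -0.022, without Cilk1-/- replicate 4. Alas2 ranged from 0.019, without Cilk1-/- replicate 2, to 0.30, without wild-type replicate 3. Between the compound mutant and wild type, the range was -0.86 to 0.053 for Hba-a1, -1.50 to 0.70 for Hba-x, -0.45 to 0.35 for Hbb-bh1, -2.34 to 0.63 for Hbb-y, -0.58 to 0.065 for Alas2 and -0.53 to -0.29 for Slc4a1, each lowest without compound mutant replicate 2 and highest without replicate 3. Hbb-bh1, near 0 there, also turned to -0.020 without wild-type replicate 1, -0.075 without wild-type replicate 3, -0.036 with the replicate block, -0.12 with a pseudocount of 0.1, -0.083 with quantile normalization and -0.016 with median centring. Between the compound mutant and Cilk1-/-, the range was -0.93 to -0.014 for Hba-a1, -1.62 to 0.58 for Hba-x, -0.29 to 0.51 for Hbb-bh1, -2.40 to 0.57 for Hbb-y, -0.75 to -0.11 for Alas2 and -0.21 to 0.034 for Slc4a1, with the same libraries at each end.

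With all listed globins, the summed share was 0.903% in wild-type, 0.981% in Cilk1-/- and 0.736% in compound mutant libraries. Leaving out each library gave summed shares of 0.514 to 0.553%, 0.537 to 0.595% and 0.337 to 0.580%, and embryonic shares of 4.23 to 5.86%, 3.71 to 5.74% and 2.16 to 7.34%, in the same order of genotypes. The replicate block, for numbers that the main fit left out, gave Slc4a1 limma adjusted p-values of 0.232, 0.127 and 0.605 in the 3 comparisons. It lowered the genes called from 62 to 4, from 209 to 26 and from 91 to 2. The adjusted p of Slc4a1 in the compound mutant against wild type was under 0.05 in 4 of 11 fits that left out 1 library, and rose above it without any 1 wild-type replicate or without Cilk1-/- replicate 2, 3 or 4. A filter on a mean log2 value of at least 1 left no value for Slc4a1. Depth, which would bear on Slc4a1 and Hbb-bh1 as genes of low level, is unknown.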
